A study of Mus musculus with 4 samples.

Results

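A set of 10 genes of renal phosphate, klotho and vitamin D handling was followed, chosen by symbol from the 32285 genes measured: the sodium-phosphate cotransporters Slc34a1, Slc34a3 and Slc20a2, the scaffold Pdzk1, the parathyroid hormone receptor Pth1r, the FGF23 co-receptor Kl (klotho) and its partner Fgfr1, the vitamin D hydroxylases Cyp27b1 and Cyp24a1, and the vitamin D receptor Vdr. All 10 of 10 were found in the data. Their levels came from droplet single-cell RNA-Seq (scRNA-Seq) of whole kidneys from male mice of strain C3H (C3H/HeJ in the study's methods), aged 18 weeks, in 4 libraries that crossed genotype with diet. Wild-type (WT) mice were compared with Sweet Pee (SP) mice, labeled MT, which carry a homozygous missense mutation of Slc5a2, the gene of the sodium-glucose cotransporter SGLT2, in every cell of the animal. Mice of each genotype received a normal diet (ND) or a high-fat diet (HFD, with 60% of calories as fat) for 8 weeks from 10 weeks of age, giving the libraries WT-ND and WT-HFD, then SP-ND and SP-HFD. Each group was 1 library, and how many animals it held is not given in the sources used here, so no comparison could be tested against variation between animals and no p-value was computed.

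The kidney sets plasma phosphate by how much of the filtered phosphate the proximal tubule (PT) takes back. NaPi-IIa, encoded by Slc34a1, and NaPi-IIc, encoded by Slc34a3, carry phosphate across the brush border, where Pdzk1 helps to anchor them. Parathyroid hormone, acting through Pth1r, and FGF23, acting through Kl with an FGF receptor such as Fgfr1, withdraw the carriers from the membrane. The same hormones set active vitamin D in opposite directions: Cyp27b1 makes it and Cyp24a1 degrades it, parathyroid hormone favoring the former and FGF23 the latter. Active vitamin D binds Vdr, which pairs with a retinoid X receptor and acts on genes of calcium transport in the distal convoluted and connecting tubule (DCT/CNT), among them S100g (calbindin-D9k), Calb1 (calbindin-D28k) and Trpv5.

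On GRCm38.p6 the phosphate carriers Slc34a1, Slc34a3 and Slc20a2 lie at chr13:55399622-55414695, chr2:25228897-25234270 and chr8:22476700-22569616, and Pdzk1 at chr3:96829456-96870926. Pth1r lies at chr9:110722085-110747145, Kl at chr5:150952607-150993817 and Fgfr1 at chr8:25518759-25575718. The vitamin D genes Cyp27b1, Cyp24a1 and Vdr lie at chr10:127048246-127054884, chr2:170482957-170497145 and chr15:97854427-97908296. The bases just before the start of Slc34a3, Cyp27b1 and S100g are shown because these genes carry main results described below, and because Vdr binds pairs of the hexamer AGGTCA. The sequences were taken from RefSeq on GRCm38.p6, each 250 bases long and read 5′ to 3′ on the gene's strand up to the base before the annotated start. They lie at chr2:25234235-25234484 on the minus strand for Slc34a3, chr10:127047996-127048245 on the plus strand for Cyp27b1 and chrX:162964600-162964849 on the minus strand for S100g. Capitals mark AGGTCA or its reverse complement TGACCT.
Slc34a3: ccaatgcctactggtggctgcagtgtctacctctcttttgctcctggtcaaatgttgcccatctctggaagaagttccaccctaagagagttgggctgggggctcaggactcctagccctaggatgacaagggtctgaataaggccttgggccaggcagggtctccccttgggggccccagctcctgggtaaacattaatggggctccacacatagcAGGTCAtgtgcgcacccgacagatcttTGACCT
Cyp27b1: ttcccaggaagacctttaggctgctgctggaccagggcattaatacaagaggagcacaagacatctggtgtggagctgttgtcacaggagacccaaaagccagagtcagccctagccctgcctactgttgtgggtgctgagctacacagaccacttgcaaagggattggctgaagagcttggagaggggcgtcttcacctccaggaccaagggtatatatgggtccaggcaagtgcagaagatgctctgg
S100g: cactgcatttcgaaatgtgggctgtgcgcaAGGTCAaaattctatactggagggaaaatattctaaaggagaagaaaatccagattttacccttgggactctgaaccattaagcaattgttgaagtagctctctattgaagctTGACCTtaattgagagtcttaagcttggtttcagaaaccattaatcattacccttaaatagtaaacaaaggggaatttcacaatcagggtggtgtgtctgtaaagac
The sources used for the windows and for the gene positions above place the start of Slc34a3 differently. The last bases of its window, both matches included, therefore lie within the gene as positioned above. The Slc34a3 window held the hexamer starting 33 bases before the start and its reverse complement 6 bases before it. In the S100g window the matches began 220 and 107 bases before the start, and in the Cyp27b1 window there was no match. At least 1 match on either strand was present in 14.0% of 32536 such windows. The direct repeat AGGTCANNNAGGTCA was found on either strand in 2 windows, neither of them of the 7 members with a window; Slc20a2, Fgfr1 and Cyp24a1 had none in the table used. A match describes the letters of a window and says nothing of occupancy.

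The libraries held 13229 to 16385 barcodes and 90728590 to 115117649 unique molecular identifiers (UMIs, each counting 1 captured mRNA molecule). After filtering, 6389 to 9924 cells remained per library, at a median of 3454 to 5342 UMIs, and 32.7% to 49.8% of barcodes had been lost to a mitochondrial share above 50%. Between 9 and 36 cell barcodes were shared by any pair of libraries. Each cell was placed in a class by the share of its UMIs that fell on marker genes, so a class is a range of that score and not a proven cell type. There were 4332, 3264, 1481 and 1043 PT-like cells in the 4 libraries in that order, which is used for every set of 4 values here. Of the 12242 kept cells with PT as their top class, 10120 were PT-like. Among the 12242, 388 lay near the lower limit of the score, on either side of it. Another limit, on markers of other classes, had 555 cells just inside and 340 just outside, the latter not counted as PT-like. In PT-like cells the markers of thick ascending limb (TAL) had a median over cells of 335 UMIs per 1000000 UMIs of the cell. Those of DCT/CNT had a median of 36.4, and those of every other class 0. Pooled levels are given below as CPM (UMIs per 1000000 UMIs of the class). By that measure WT-HFD stood apart: its PT-like cells carried markers of other classes at 2421 CPM, against 561 to 621 in the other libraries. Mixed cells, left without a class because they carried markers of several, numbered 1092, 1692, 677 and 612. Their share was largest in WT-HFD, at 18.9% of kept cells. With mixed cells put in their top class, the PT-like cells were 4704, 4045, 1604 and 1110. The study describes proximal tubule cells, mainly from WT-HFD, that also express TAL markers. Whether the mixed cells include these was not tested, so PT-like cells of WT-HFD may not be fully comparable. Slc5a2, the mutated gene, was at 310.4, 212, 59.4 and 101 CPM in PT-like cells, lower in both SP libraries. A missense allele need not change its mRNA level, so this is a limited check of the labels.

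The genes of the set were highest in different classes of the kidney. Slc34a1 was at 2135 to 2694 CPM in PT-like cells and Pdzk1 at 318 to 396 CPM. Immune-like cells, which do not make Slc34a1, held 277, 75.0, 118 and 63.9 CPM of it, and TAL-like and DCT/CNT-like cells held less than that in every library. The highest Slc34a1 level in a named class outside the proximal tubule was 1024 CPM, in the 43 erythroid-like cells of WT-HFD, which held 291 UMIs of it. Those immune-like values were taken as a gauge of RNA released from other cells, but their source was not tested. Slc34a1 and Pdzk1 in TAL-like and DCT/CNT-like cells were read against them as background. Cyp27b1 was counted almost only in PT-like cells: it had 74, 139, 12 and 15 UMIs there, 0 UMIs in immune-like, endothelial-like and fibroblast or mural-like cells of every library, and at most 2 UMIs in a library in any other named class. A count of 0 in the immune-like cells allows up to 0.786 to 2.59 CPM, taking 3 UMIs per library as the limit. Cells in which no class could be told apart, because markers of 2 or more classes were present, held 13 Cyp27b1 UMIs in WT-HFD and 0 to 2 elsewhere.

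Kl, Vdr, Pth1r and Fgfr1 were broader. Kl was at 1349 to 1493 CPM in DCT/CNT-like cells, 254 to 509 CPM in principal-like cells, 171 to 255 CPM in TAL-like cells and 230.5 to 247 CPM in PT-like cells. The TAL and PT ranges overlapped. Vdr was at 153 to 193 CPM in DCT/CNT-like cells, 71.6 to 96.4 CPM in intercalated-like cells and 72.5 to 77.7 CPM in PT-like cells, the latter pair overlapping. Pth1r was higher in podocyte-like cells, at 1025 to 1098 CPM in all 4 libraries, than in PT-like cells, at 252 to 362 CPM, and DCT/CNT-like cells, at 176 to 217 CPM. Fgfr1 was also higher in podocyte-like cells, at 232 to 271 CPM, than in fibroblast or mural-like cells, at 90.8 to 135 CPM, and it stayed between 8.62 and 12.6 CPM in PT-like cells. Podocytes wrap the glomerular capillaries and are not a site of phosphate uptake. Kl in podocyte-like cells was at 31.1, 17.0, 17.9 and 18.3 CPM, beside 46.6, 14.0, 34.7 and 23.1 CPM in immune-like cells, so Kl there was not above background while Pth1r and Fgfr1 were.

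**Figure D1:**
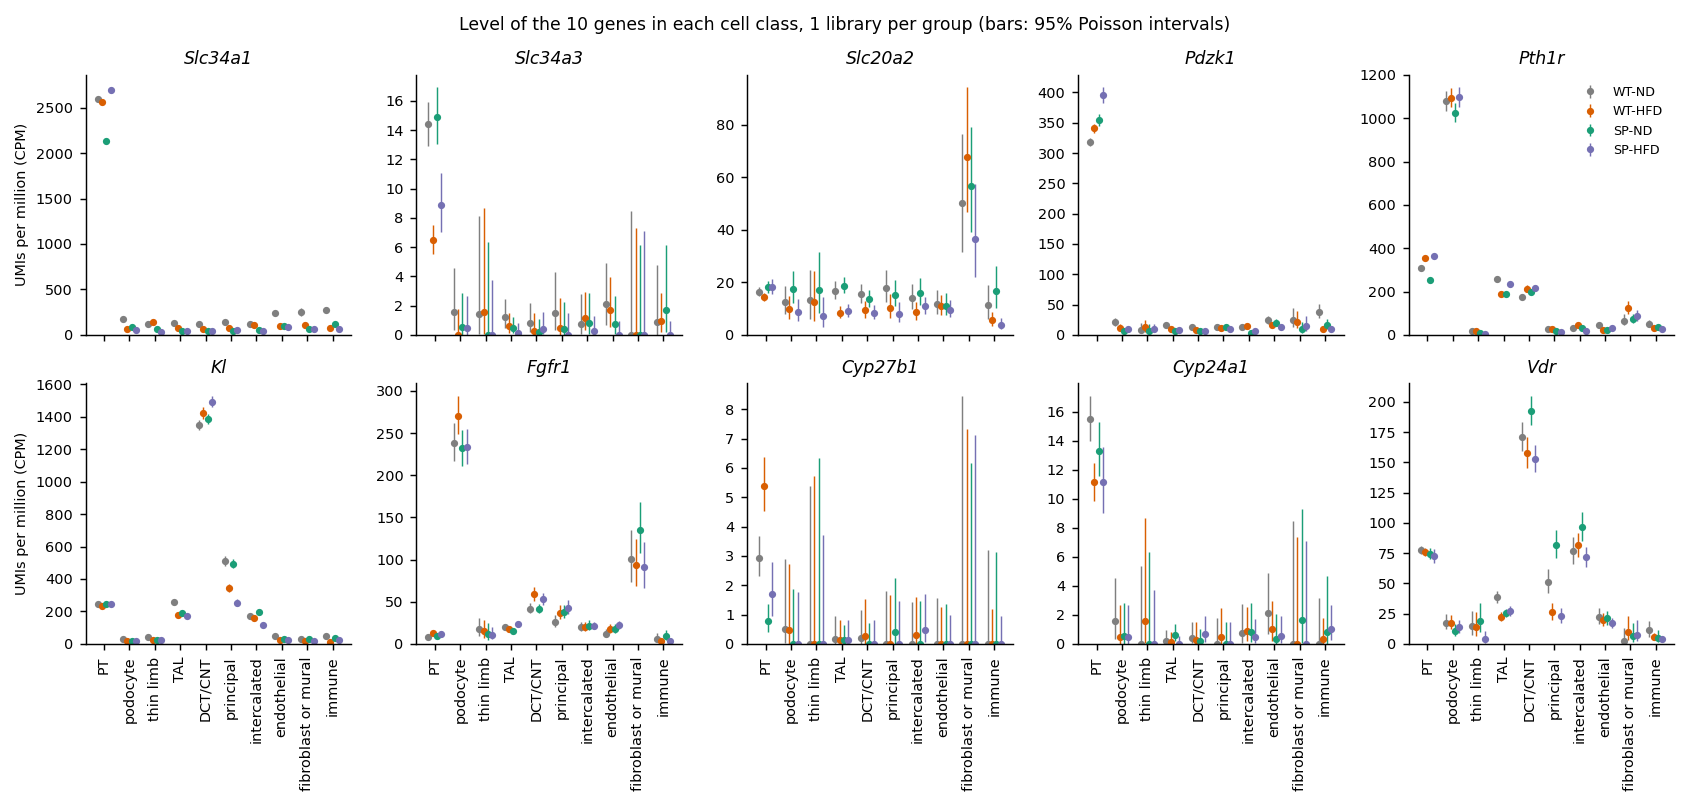
CPM of each of the 10 genes by cell class on a linear axis of its own, with 1 point per library, 95% Poisson intervals, and the immune-like level at the right as background. Slc34a1, Pdzk1, Slc34a3, Cyp27b1 and Cyp24a1 are highest on average in PT-like cells, Kl and Vdr in DCT/CNT-like cells, and Pth1r and Fgfr1 in podocyte-like cells.

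Within the proximal tubule Slc34a1 differed between segments. It was higher in cells with early (S1/S2) markers than in cells with late (S3) markers in all 4 libraries, by 0.38, 0.73, 1.53 and 1.01 on the log2 scale. Slc20a2 had no such order, with log2 differences of -0.09, -0.61, -0.37 and 0.11 whose 95% intervals all included 0. Slc34a3 was at 20.6, 8.01, 18.5 and 11.8 CPM in S1/S2-like cells and had 2, 2, 2 and 0 UMIs in S3-like cells, and the interval of the difference included 0 in WT-HFD and SP-ND. Cyp27b1 had 63, 112, 11 and 12 UMIs in S1/S2-like cells and 1, 2, 0 and 0 in S3-like cells. The S3-like cells were few, so small levels there were not detectable at this depth. For Pth1r and Kl the S1/S2 to S3 differences had 95% intervals that included 0 in 3 of 4 libraries each.

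Slc34a3 was the phosphate carrier with the widest differences between libraries over all PT-like cells, while Slc34a1 and Slc20a2 varied less. In WT, Slc34a3 was at 14.4 CPM on ND (362 UMIs) and 6.48 CPM on HFD (167 UMIs). In SP it was at 14.9 CPM on ND (229 UMIs) and 8.89 CPM on HFD (79 UMIs). Both HFD libraries were therefore lower than both ND libraries. The HFD to ND log2 ratio was -1.15 in WT (95% interval -1.42 to -0.88) and -0.74 in SP (-1.13 to -0.37), where intervals here and below cover the counting of UMIs only and not variation between animals. At equal diet the genotypes were closer, with SP to WT log2 ratios of 0.05 on ND (-0.19 to 0.29) and 0.46 on HFD (0.05 to 0.85). Cells with at least 1 Slc34a3 UMI made up 6.14%, 3.95%, 8.98% and 4.79% of PT-like cells, against 0% to 0.57% of immune-like cells. Only the 2924, 3018, 1263 and 837 PT-like cells with at least 1000 UMIs could be thinned to 1000 UMIs. Their Slc34a3 shares were 1.98%, 0.895%, 1.27% and 1.67%. Shallower cells were left out of these shares, unequally between libraries. The order of the SP libraries was opposite to that of the CPM, so no order was read from these shares.

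Slc34a1, the main carrier, was at 2595, 2559, 2135 and 2694 CPM. Its diet log2 ratio was -0.02 in WT (-0.04 to -0.00) and 0.34 in SP (0.31 to 0.36), and SP-ND was the lowest library. At 65312, 65930, 32841 and 23932 UMIs its counting error was small, and differences of this size may lie within the unmeasured variation between animals. In S3-like cells alone Slc34a1 varied more, at 2104, 1703, 765 and 1500 CPM. Its diet log2 ratio there was -0.30 in WT (-0.43 to -0.18) and 0.97 in SP (0.77 to 1.18). Slc20a2, which encodes the widely expressed carrier PiT-2, was at 16.5, 14.5, 18.1 and 18.3 CPM. Its diet log2 ratios of -0.18 (-0.39 to 0.02) and 0.02 (-0.27 to 0.30) were within counting error. Pdzk1 was at 318, 340.4, 354 and 396 CPM, with diet log2 ratios of 0.10 in WT and 0.16 in SP.

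**Figure D2:**
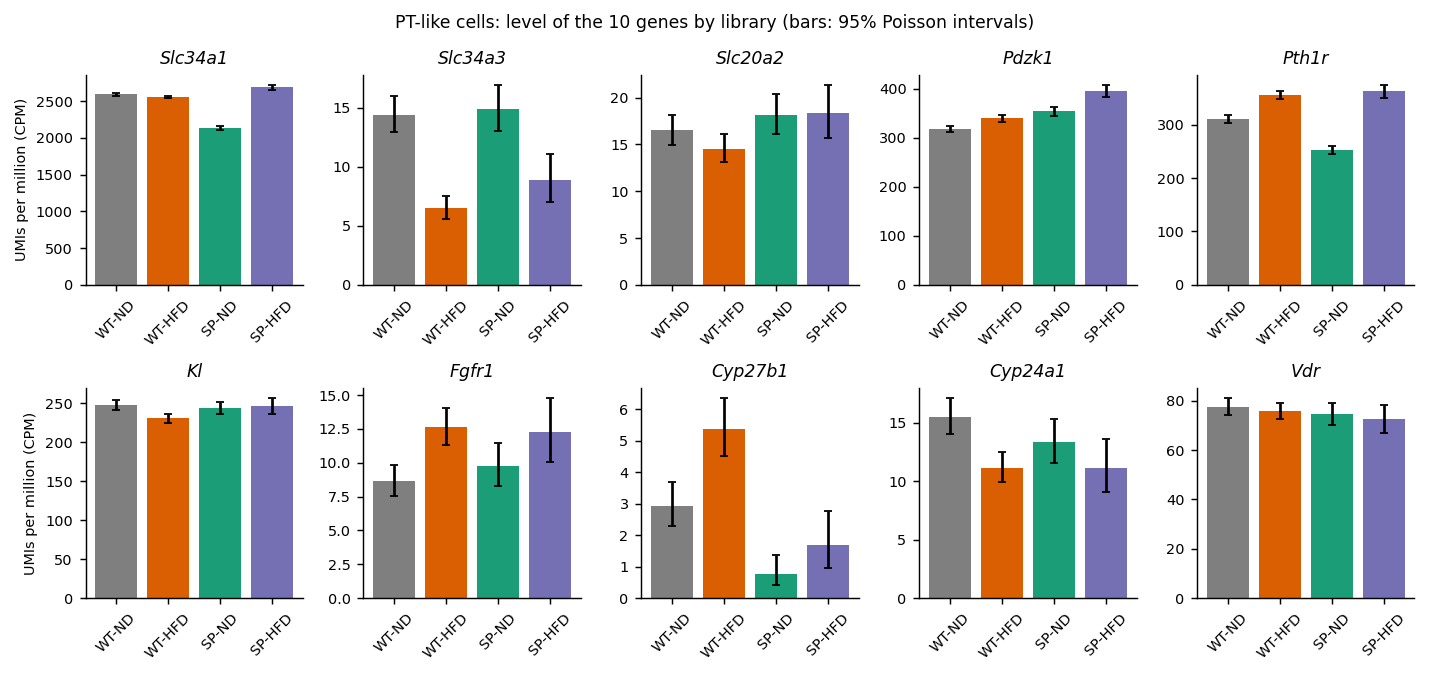
CPM of each of the 10 genes in PT-like cells of the 4 libraries, 1 panel per gene with its own axis; error bars are 95% Poisson intervals of the UMI count. Slc34a3 is lower in both HFD libraries, Cyp27b1 is lower in both SP libraries, and Kl and Vdr are nearly level.

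Cyp27b1, which makes active vitamin D, was lower in both SP libraries. WT had 2.94 CPM on ND and 5.39 CPM on HFD, whereas SP had 0.78 CPM on ND and 1.69 CPM on HFD, so neither SP library reached the lower WT library. The SP to WT log2 ratio was -1.91 on ND (-2.93 to -1.02) and -1.68 on HFD (-2.55 to -0.90), a level 3.8-fold and 3.2-fold lower. On HFD the WT level was 1.83-fold that on ND (log2 0.88, 0.46 to 1.30), and the SP pair had too few UMIs, 27 in all, to be compared under the minimum of 50. Only 59, 76, 10 and 10 PT-like cells held any Cyp27b1 UMI, and 1 cell of SP-HFD held 6 of that library's 15. In immune-like cells 0 of 2170 held any.

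Cyp24a1, which degrades active vitamin D, did not mirror the genotype difference of Cyp27b1 but had the opposite sign between the WT diets. It was at 15.5, 11.1, 13.3 and 11.1 CPM in PT-like cells, and at most 5 UMIs per library were counted in any class outside the proximal tubule shown in the plot of levels by class. The diet log2 ratio was -0.48 in WT (-0.70 to -0.25) and -0.26 in SP (-0.62 to 0.09). The SP to WT ratios, -0.22 on ND (-0.47 to 0.03) and 0.00 on HFD (-0.34 to 0.34), both had intervals that included 0. Cyp24a1 and Cyp27b1 were seen together in 6, 8, 2 and 1 PT-like cells. Vdr was the steadiest member, at 77.7, 75.8, 74.5 and 72.5 CPM, and all 4 of its ratios lay between -0.06 and -0.04 with intervals that included 0.

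The vitamin D hydroxylases and Slc34a3 were higher in a small set of PT-like cells than in all other PT-like cells pooled. Cells of all libraries were grouped together into 40 clusters on genes other than the 10 members, with no correction for differences between libraries. Cluster 23 was looked at more closely because it held the most Cyp27b1, and that choice was made after its values were seen. The genes that set cluster 23 apart were led by Ccl2 (a monocyte chemoattractant), Ubd, C3 (a complement component), Ptgds, Stc2 (a stanniocalcin), Cp and Vcam1 (an adhesion molecule). It held 167, 84, 106 and 25 PT-like cells, or 3.86%, 2.57%, 7.16% and 2.40% of the class. S1/S2 marker Slc5a12 was at 315 to 384 CPM inside it against 99.6 to 193 outside, and S3 marker Slc7a13 at 8.26 to 25.4 CPM against 229.6 to 454.

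Inside cluster 23 Cyp27b1 was at 24.8, 58.1, 3.44 and 8.74 CPM, against 1.64, 3.38, 0.50 and 1.50 CPM in all other PT-like cells. These few cells held 47.3%, 39.6%, 41.7% and 13.3% of the Cyp27b1 UMIs of the class, from 35, 55, 5 and 2 UMIs. In SP-HFD cluster 7 held more Cyp27b1 UMIs, at 12, and the intervals inside and outside cluster 23 overlapped. On HFD the lower level in SP was present on both sides. The SP to WT log2 ratio on HFD was -2.73 inside the cluster (-5.81 to -0.81) and -1.17 outside it (-2.14 to -0.32). On ND both pairs were under the minimum of 50 UMIs, with 5 in SP and 35 in WT inside, and 7 and 39 outside. The ND ratios, -2.85 inside (-4.56 to -1.49) and -1.71 outside (-3.11 to -0.53), are therefore given as a description only. The higher level in WT-HFD than in WT-ND was also present on both sides, at 1.23 (0.59 to 1.88) inside and 1.04 (0.48 to 1.63) outside.

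Slc34a3 depended on this split. It was at 46.1, 51.8, 84.0 and 61.2 CPM inside cluster 23 and 12.5, 4.75, 7.68 and 7.51 CPM outside. In WT the lower level on HFD was found outside the cluster, with a log2 ratio of -1.39 (-1.71 to -1.08), while inside it the ratio was 0.17 (-0.40 to 0.72). In SP the ratio outside was -0.03 (-0.50 to 0.43), and inside it was -0.46 (-1.37 to 0.34). SP-ND had 53.3% of its Slc34a3 UMIs in the cluster, which made up 7.16% of its PT-like cells, and SP-HFD had 17.7%, with the cluster at 2.40%. Slc34a3 over all PT-like cells and the share of cluster 23 cells were both lower in SP-HFD than in SP-ND. Whether the share contributed to the Slc34a3 difference was not tested. With 25 cells of the cluster in SP-HFD the level inside could not be compared closely. Outside the cluster Slc34a3 was also lower in SP-ND than in WT-ND, by a log2 ratio of -0.70 (-1.03 to -0.38), a difference not seen over all PT-like cells.

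Cyp24a1 was likewise higher inside, at 50.4, 80.3, 32.4 and 52.4 CPM against 13.4, 8.50, 11.3 and 10.1 CPM outside. Its WT diet difference had opposite directions on the 2 sides, with log2 ratios of 0.67 inside (0.19 to 1.16) and -0.66 outside (-0.92 to -0.40). The cluster held 18.2%, 26.5%, 22.9% and 12.1% of the Cyp24a1 UMIs of the class. Higher levels were not particular to it. PT-like cells of cluster 9 had Cyp24a1 at 40.1, 31.7, 61.5 and 6.29 CPM and Slc34a3 at 20.1, 22.7, 30.8 and 25.2 CPM. In WT-ND cluster 4 held 187 Cyp24a1 and 204 Slc34a3 UMIs, more than the 71 and 65 of cluster 23. Pth1r had the reverse placement, at 185, 238, 193 and 175 CPM inside and 318, 359, 259 and 367 CPM outside. Slc34a1 was not concentrated in the cluster in any library, at 2119, 2557, 2313 and 2555 CPM inside and 2623, 2559, 2117 and 2697 CPM outside.

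**Figure D3:**
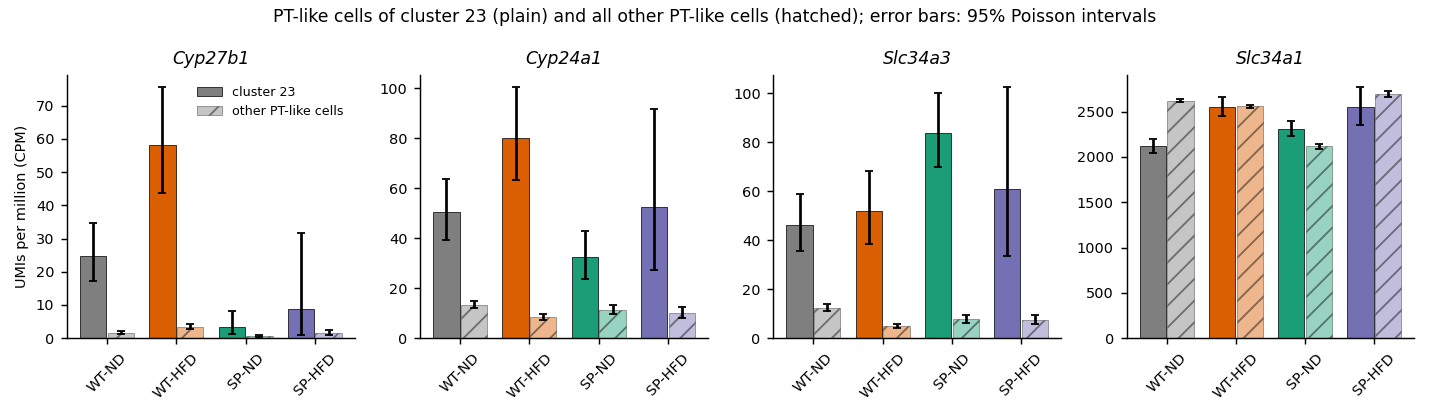
CPM of Cyp27b1, Cyp24a1, Slc34a3 and Slc34a1 in PT-like cells of cluster 23 (plain bars) and in all other PT-like cells (hatched bars) of each library, with 95% Poisson intervals. Cyp27b1, Cyp24a1 and Slc34a3 are higher inside the cluster in all 4 libraries, whereas Slc34a1 is between 2117 and 2697 CPM on either side. For Cyp27b1 the inside and outside intervals of SP-HFD overlap.

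The PT-like cells of different libraries also fell mostly in different clusters. Cluster 5 held 25.9% of those of WT-ND, cluster 7 held 27.8% of those of WT-HFD and 47.3% of those of SP-HFD, and cluster 4 held 48.1% of those of SP-ND. Clusters 4 and 7 held PT-like cells of both genotypes on 1 diet, 894 of WT-ND and 713 of SP-ND in the former and 907 of WT-HFD and 493 of SP-HFD in the latter, and were compared there after the values were seen. In cluster 4, on ND, Slc34a3 was lower in SP than in WT, with a log2 ratio of -1.75 (-2.15 to -1.37), Cyp24a1 gave -1.06 (-1.40 to -0.72) and Slc34a1 gave -0.44. Other clusters with both genotypes on ND did not all share these differences. In cluster 23 Slc34a3 gave 0.86 (0.42 to 1.32), Cyp24a1 gave -0.64 (-1.20 to -0.09) and Slc34a1 gave 0.13. In cluster 9 Cyp24a1 gave 0.62 (-0.23 to 1.40). Slc34a1 gave -0.32, -0.14 and -0.10 in clusters 5, 9 and 26, where Slc34a3 had under 50 UMIs. In cluster 7, on HFD, Cyp27b1 gave -1.21 (-2.25 to -0.28) and Slc34a1 gave -0.17, while Slc34a3 gave 0.51 (-0.09 to 1.10) and Cyp24a1 gave 0.07 (-0.36 to 0.50).

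The hormone receptors were compared in PT-like cells next. Pth1r was at 310.3, 355, 252 and 362 CPM, with SP-ND the lowest library. Its diet log2 ratio was 0.19 in WT (0.15 to 0.24) and 0.52 in SP (0.45 to 0.59), both HFD libraries lying above both ND libraries. Kl was at 247, 230.5, 244 and 246 CPM, a range narrower than that of any other member but Vdr, with diet log2 ratios of -0.10 in WT and 0.01 in SP. Fgfr1 was at 8.62, 12.6, 9.75 and 12.3 CPM, higher on HFD by a log2 ratio of 0.55 in WT (0.30 to 0.80) and 0.33 in SP (-0.04 to 0.70). The Fgfr1 level in immune-like cells was 2.93 to 9.31 CPM, which leaves the PT level of Fgfr1 not far above background.

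Few members passed a fixed fold in PT-like cells. A gene was counted as different where the CPM ratio was 1.5-fold or more and both libraries together held at least 50 UMIs. Between the WT diets 1 of 10 members was higher (Cyp27b1) and 1 was lower (Slc34a3) on HFD, where 16.9% of all 11970 genes were higher and 5.62% lower. Between the SP diets 0 of 9 members were higher and 1 was lower (Slc34a3), against 9.16% and 8.07% of genes. In SP-ND against WT-ND 0 of 10 were higher and 1 was lower (Cyp27b1), against 3.46% and 5.46% of genes. In SP-HFD against WT-HFD 0 of 10 were higher and 1 was lower (Cyp27b1), against 3.14% and 13.5% of genes. The median log2 ratio of the tested members was -0.03, 0.02, -0.04 and 0.05 in these comparisons, and that of all genes 0.07, 0.01, 0.04 and 0.02. With 0 or 1 member in each direction, these counts were not read as a result about the set, and comparisons that use the same library are not independent of each other.

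In DCT/CNT-like cells (783, 403, 679 and 664 cells) 7 of the 10 genes had enough UMIs. Of these 2529 cells, 77 lay near the lower limit of the score, and the markers of TAL and of PT had medians of 1007 and 495 CPM in them. Between the WT diets 0 of 7 were higher and 3 lower on HFD (Slc34a1, Slc20a2 and Pdzk1), where 5.43% of genes were higher and 4.9% lower. Between the SP diets 0 were higher and 1 was lower (Slc20a2), against 5.52% and 3.13% of genes. In SP-ND against WT-ND 0 were higher and 2 lower (Slc34a1 and Pdzk1), against 2.58% and 3.37%, and in SP-HFD against WT-HFD 0 were higher and 0 lower, against 2.59% and 2.14%. Slc34a1, at 118, 66.8, 45.6 and 47.8 CPM, and Pdzk1, at 13.4, 7.94, 6.47 and 5.92 CPM, were below their immune-like levels in DCT/CNT-like cells. These calls were therefore not read as expression in these cells, and the source of the RNA was not tested.

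**Figure D4:**
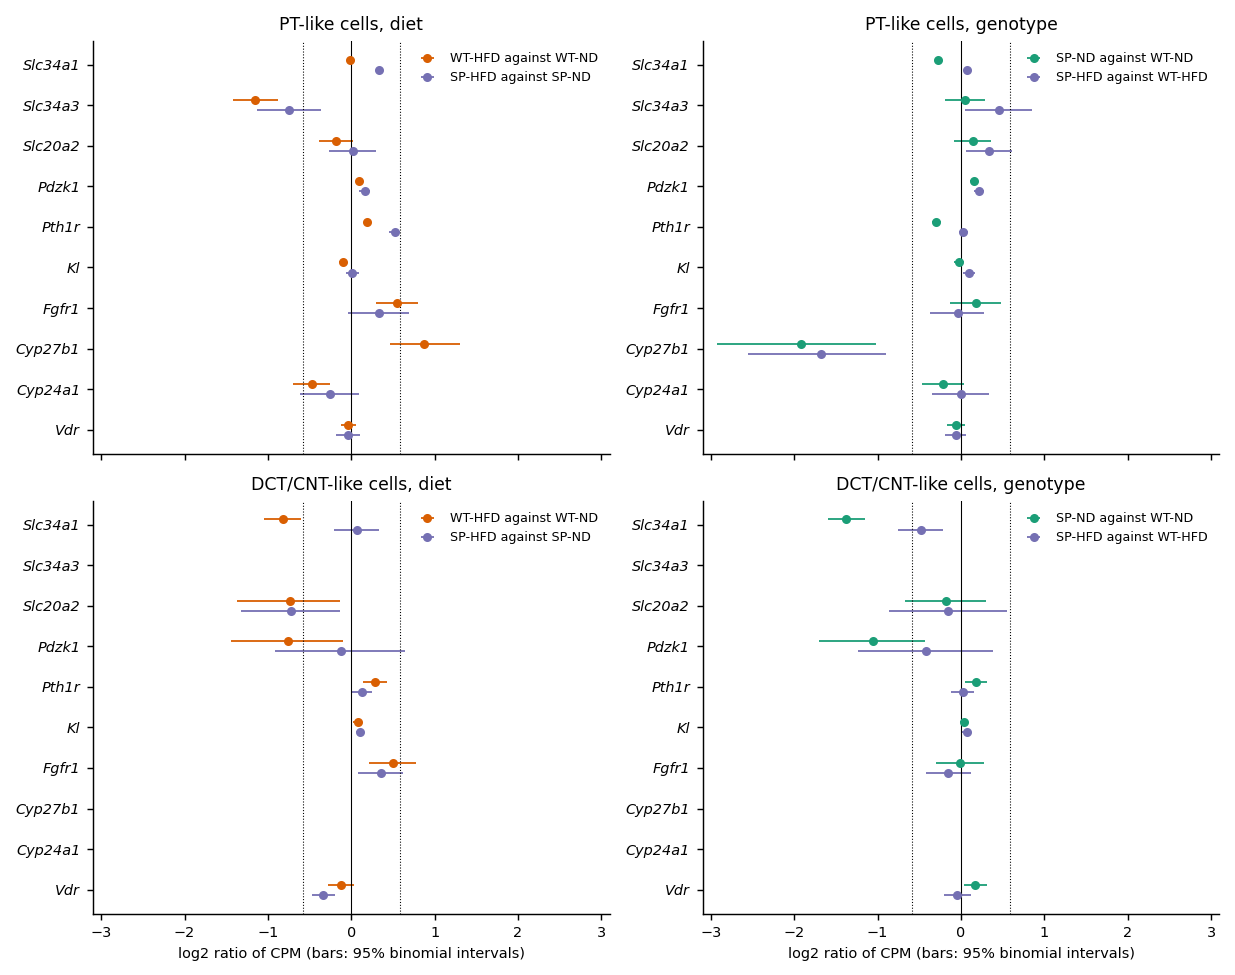
Log2 ratios of the 10 genes for the diet comparisons (left) and genotype comparisons (right) in PT-like and DCT/CNT-like cells, with 95% intervals from UMI counting, dotted lines at 1.5-fold and no point where a pair held under 50 UMIs. In PT-like cells Slc34a3 lies left of the lower line for both diet comparisons and Cyp27b1 for both genotype comparisons.

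Klotho in the distal tubule looked level over the whole class but not within it. Over all DCT/CNT-like cells Kl was at 1349, 1423, 1387 and 1493 CPM, with diet log2 ratios of 0.08 (0.02 to 0.13) in WT and 0.11 (0.06 to 0.15) in SP. The class fell mainly in 2 clusters, which were then examined separately, a split added after the data were seen. Cluster 1, high in Pvalb (parvalbumin, a marker of the early distal convoluted tubule), held 69.3%, 70.5%, 59.9% and 65.4% of the class, and cluster 21, high in Calb1, S100g and Trpv5, held 24.3%, 23.1%, 29.3% and 24.7%.

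In cluster 1 Kl was at 716 CPM on ND and 1117 CPM on HFD in WT, and at 517 CPM on ND and 1100 CPM on HFD in SP. Both HFD libraries were higher, with diet log2 ratios of 0.64 in WT (0.56 to 0.72) and 1.09 in SP (1.00 to 1.18). Pth1r had the same order there, at 111, 186, 112 and 183 CPM, with ratios of 0.73 (0.53 to 0.94) and 0.70 (0.49 to 0.91). Vdr was at 108, 128, 111 and 120.4 CPM, and only the WT ratio of 0.25 (0.02 to 0.48) had an interval above 0. Calb1 was likewise higher on HFD in cluster 1, at 779, 1373, 796 and 1636 CPM, and so was Pvalb, itself a marker of the class, at 3181, 4058, 2948 and 4249 CPM.

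In cluster 21 Kl and Pth1r differed less between diets, and Vdr was lower on HFD. Kl was at 2413, 2082, 2340.1 and 2359 CPM, with diet log2 ratios of -0.21 in WT (-0.29 to -0.14) and 0.01 in SP (-0.05 to 0.08). Pth1r was at 303, 280.03, 284 and 277 CPM, with both diet intervals including 0. Vdr was at 279, 225, 284 and 224 CPM, lower on HFD by log2 ratios of -0.31 in WT (-0.55 to -0.08) and -0.34 in SP (-0.54 to -0.13).

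**Figure D5:**
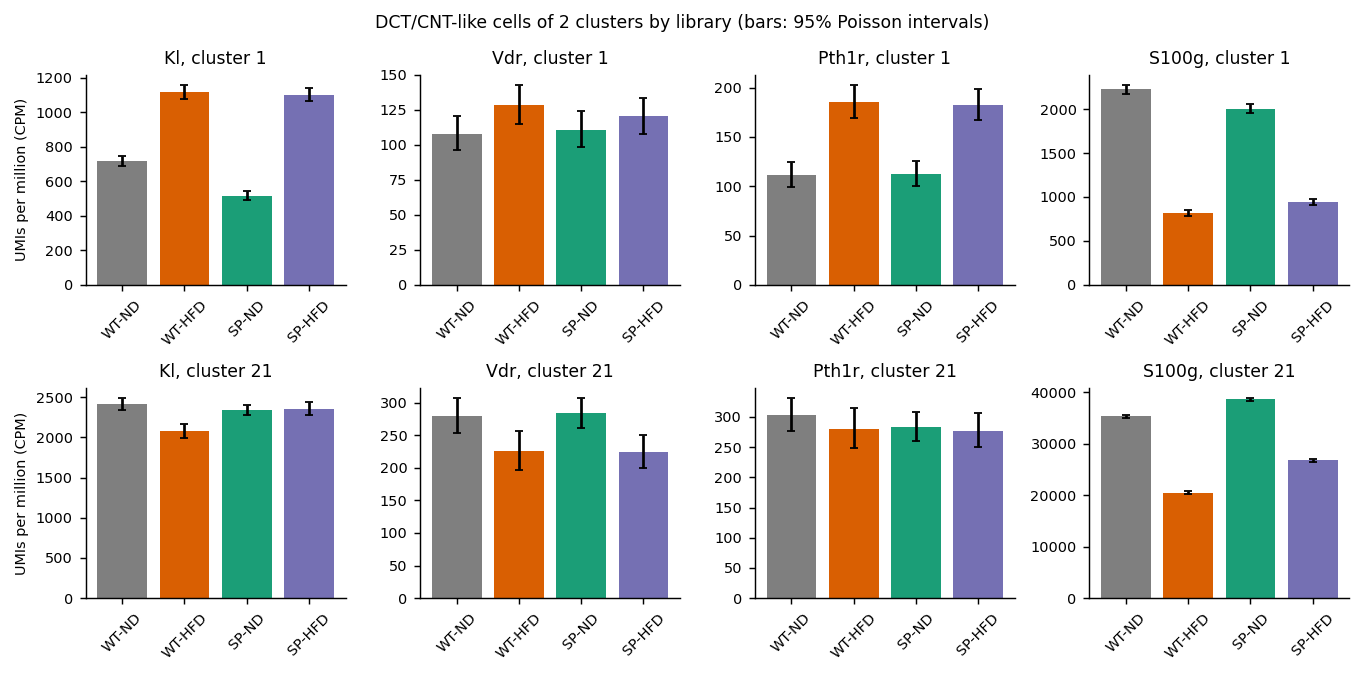
CPM of Kl, Pth1r, Vdr and S100g in DCT/CNT-like cells of cluster 1 and cluster 21 in the 4 libraries, with 95% Poisson intervals. In cluster 1 Kl and Pth1r are higher in both HFD libraries, in cluster 21 Vdr is lower in both, and S100g is lower on HFD in both clusters.

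S100g, which encodes a calcium-buffering protein and is a known target of Vdr, was lower on HFD in both genotypes. In DCT/CNT-like cells WT had 15116 CPM on ND and 6864 CPM on HFD, and SP had 19598 CPM and 9111 CPM. The diet log2 ratio was -1.14 in WT (-1.16 to -1.12) and -1.10 in SP (-1.12 to -1.09), and it stayed below 0 in cluster 1, at -1.44 and -1.09, and in cluster 21, at -0.79 and -0.53. The background of S100g in immune-like cells had the same order, at 301, 46.3, 371 and 58.4 CPM. Calb1 in the class was at 2611, 1993, 3549 and 2410.1 CPM, with diet ratios of -0.39 and -0.56, and Trpv5, the apical calcium channel, was at 37.0, 25.5, 53.6 and 30.0 CPM, with -0.54 and -0.84. Slc8a1, the basolateral sodium-calcium exchanger, was at 1843, 1414, 2324 and 1624 CPM, with -0.38 and -0.52. All 4 of these calcium-handling genes were lower on HFD in both genotypes over the class. Within cluster 1, however, Calb1 and Slc8a1 were higher on HFD, Slc8a1 by log2 ratios of 1.01 in WT and 1.52 in SP. In cluster 21 the Trpv5 intervals included 0, at -0.38 in WT (-0.80 to 0.03) and -0.32 in SP (-0.66 to 0.01). Cells outside both clusters made up 6.39%, 6.45%, 10.8% and 9.94% of the class. Their SP diet ratios were -2.01 for S100g, -1.98 for Calb1, -1.60 for Trpv5 and -0.88 for Slc8a1. The part of the mix of clusters in the class ratios was not tested.

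Slc20a2 was lower on HFD in the loop and distal classes of both genotypes, which was not seen over all PT-like cells. In S1/S2-like cells alone its diet log2 ratio was -0.32 in WT (-0.57 to -0.07) and 0.21 in SP (-0.12 to 0.53). Of the 4618 kept cells with TAL on top, 185 lay near the lower limit of the score, on either side of it. In TAL-like cells (963, 854, 987 and 1042 cells) Slc20a2 was at 16.7, 8.46, 18.8 and 9.14 CPM. Its diet log2 ratios there were -0.98 in WT (-1.48 to -0.49) and -1.04 in SP (-1.48 to -0.61). In DCT/CNT-like cells Slc20a2 was at 15.5, 9.31, 13.7 and 8.33 CPM, with -0.74 (-1.37 to -0.13) and -0.72 (-1.32 to -0.13). Immune-like cells had Slc20a2 at 11.2, 5.54, 16.9 and 3.93 CPM, from 13 to 20 UMIs per library, which is the same order of diets at a level close to that of the tubule classes. Whether released RNA contributed to the difference was not tested. Principal-like cells, at 17.7, 10.3, 15.3 and 8.00 CPM, and intercalated-like cells, at 14.2, 8.69, 15.8 and 10.9 CPM, were also lower on HFD in both genotypes. Fibroblast or mural-like cells, at 50.4, 67.7, 56.7 and 36.7 CPM, had no common direction.

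In TAL-like cells WT-ND was the highest library for Pth1r, Vdr and Kl, as it was in immune-like cells, where Pth1r was at 51.8, 34.2, 37.2 and 27.0 CPM, Vdr at 11.2, 5.87, 5.08 and 3.67 CPM, and Kl at the values given above. The part of released RNA in these values was not tested. Pth1r was at 258, 191, 190.2 and 233 CPM, and its diet log2 ratio was -0.43 in WT (-0.54 to -0.32) and 0.29 in SP (0.19 to 0.39). Vdr was at 38.5, 22.6, 25.2 and 27.1 CPM, with -0.77 (-1.08 to -0.47) in WT and 0.11 (-0.18 to 0.40) in SP. Kl was at 255, 175, 193 and 171 CPM, with -0.54 (-0.66 to -0.43) and -0.18 (-0.29 to -0.07). In principal-like cells, looked at after the values were seen, Vdr was at 51.2, 26.1, 81.8 and 23.2 CPM and Kl at 509, 346, 492 and 254 CPM, both lower in the HFD libraries.

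Of 55 further genes in 9 lists of the same pathways, 44 had enough UMIs in PT-like cells between the WT diets, and 9 were higher and 6 lower on HFD, beside 16.9% and 5.62% of all genes. Between the SP diets 3 were higher and 6 lower of 41, beside 9.16% and 8.07% of all genes. In SP-ND against WT-ND 3 were higher and 1 lower of 42, beside 3.46% and 5.46%, and in SP-HFD against WT-HFD 1 was higher and 10 lower of 44, beside 3.14% and 13.5%. These shares over all genes are the background of the counts by list too. By list, the genes of vitamin D uptake and hydroxylation had 0 higher and 3 lower of 9 between the WT diets, and 3 higher and 1 lower of 9 between the SP diets. The FGF-ERK response genes had 2 higher and 0 lower of 6 between the WT diets, and 0 higher and 3 lower of 6 in SP-HFD against WT-HFD. The Vdr targets and distal calcium genes had 3 higher and 0 lower of 4 between the WT diets, and 0 higher and 3 lower of 4 both between the SP diets and in SP-HFD against WT-HFD. Of the Vdr partners 1 of 5 was lower between the WT diets and 0 passed in the other comparisons. Lrp2 (megalin), which takes filtered vitamin D and its binding protein into the cell, was at 1335, 725, 1287 and 959 CPM, and Cubn (cubilin), its partner, at 147, 80.6, 147 and 104 CPM, both lowest in WT-HFD. Slc8a1, at 12.4, 57.7, 9.62 and 6.19 CPM, Calb1, at 28.6, 85.1, 24.1 and 11.5 CPM, and the scaffold Slc9a3r2, at 6.24, 23.2, 5.59 and 5.29 CPM, were highest in the PT-like cells of WT-HFD, the library in which markers of other classes were highest. Slc8a1 and Calb1 are genes of the distal tubule, and the part of those markers in these values was not tested. Dusp6, a feedback inhibitor of ERK that FGF signals induce, was at 27.6, 30.1, 49.7 and 39.1 CPM, and Egr1, an immediate early gene, at 30.3, 38.5, 37.1 and 11.5 CPM.

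Dhcr7, which diverts the precursor of vitamin D toward cholesterol, was at 7.07, 4.70, 11.8 and 4.84 CPM in PT-like cells, and the scaffold Shank2 at 12.4, 6.91, 13.2 and 4.39 CPM. Fgfr3 and Fgfr4, the other FGF receptors of the proximal tubule, were at 12.8 to 19.5 CPM and 13.9 to 17.8 CPM, with SP-HFD highest for both. Fgf23, which is made in bone, had 0 UMIs in PT-like, TAL-like, DCT/CNT-like and immune-like cells. In DCT/CNT-like cells 2 list genes were higher and 6 lower of 38 between the WT diets, beside 5.43% and 4.9% of all genes, and 1 and 4 of 37 between the SP diets, beside 5.52% and 3.13%. In SP-ND against WT-ND there they were 2 and 5 of 39, beside 2.58% and 3.37%, and in SP-HFD against WT-HFD 0 and 0 of 37, beside 2.59% and 2.14%. Slc20a1, the relative of Slc20a2, was at 5.04, 12.3, 9.89 and 8.98 CPM there, and Egr1 at 58.8, 123, 132 and 104 CPM. Spry2, another feedback inhibitor of receptor tyrosine kinases, was at 12.4, 11.5, 7.99 and 16.7 CPM, and Etv5, a transcription factor that FGF signals induce, at 11.1, 12.1, 6.85 and 9.20 CPM. In TAL-like cells Egr1 was at 74.5, 84.1, 309.8 and 68.3 CPM, with SP-ND far above the other libraries, and in immune-like cells it was at 379, 311, 501 and 213 CPM, where SP-ND was also highest. Lrp2 in DCT/CNT-like cells, at 78.1, 22.7, 41.1 and 24.1 CPM, was below its level in immune-like cells, at 29.3 to 170.2 CPM, in every library, and was read as background.

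The pattern of each member over 54 points (library by class) was compared with that of 11907 genes by Pearson's r on log2(CPM + 1), as a description only, since points share libraries, depth and class markers. Among the genes most like Slc34a1 were Acsm2 (0.979) and Slc22a6 (0.976), both used as markers. Pdzk1 was most like Acsm1 (0.951, a marker), Cgref1 (0.919) and Slc47a1 (0.903), and Kl was most like Tmem52b (0.870, a marker), Ldhb (0.859) and mt-Co1 (0.848). For Vdr these were Letm1 (0.818), Kif21a (0.816) and Sdha (0.815), and for Pth1r Itgb8 (0.771), Abat (0.764) and Ptprd (0.738). Fgfr1 was most like Parva (0.824), Schip1 (0.819) and Ppm1l (0.80), and among those most like Slc20a2 were Micu3 (0.781) and Adcy9 (0.741). Slc34a3, Cyp27b1 and Cyp24a1 stayed below 20 CPM in every class and were not compared.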

How the data were processed

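Kidney cells of 4 libraries, 1 per group, were captured with the Chromium 3′ kit v3.1, and the deposited files are raw UMI counts per gene and barcode that the authors made with Cell Ranger (6.1.2 per the file headers, 2.1.1 and build mm10 per the submitters' processing notes). Every deposited barcode had at least 500 UMIs. Kept here were cells with 200 to 5000 detected genes and at most 50% mitochondrial UMIs, less simulated-neighbor doublets (365 to 945 per library). Each cell's UMI share on the markers of a class, divided by a typical share of that class, gave its score. The top class was kept where the score was at least 0.1 and no second class exceeded 0.5 of it; these limits were set after the data were seen. The names of the cell classes and the clusters were rebuilt from the counts and may differ from those of the study.

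UMIs were summed per library and class and given as CPM with exact Poisson 95% intervals, and as log2 ratios with exact conditional binomial 95% intervals, which cover counting error only; shares of cells have exact Clopper-Pearson intervals in the tables. Levels were not compared between genes. Clusters came from Leiden clustering at resolution 1 on 30 components of 2000 genes, members left out. Genes named from the pathway lists were at most 4 per comparison with the largest ratios past 1.5-fold and at least 10 CPM in either library, besides a few chosen after their values were seen (Cubn, Fgfr3, Fgfr4, Fgf23, and Calb1, Trpv5 and Slc8a1 where not past 1.5-fold). The members and lists were chosen with earlier results of these data known. The counting was tested on simulated data. The tools were scipy 1.17.1 and numpy 2.4.6 in Python 3.11.15, with scikit-learn 1.9.0, leidenalg 0.10.2, igraph 0.11.9, pandas 2.3.3 and matplotlib 3.10.9. Of 15 alternatives, the effects are given at the end. Of the genes with the most similar patterns, up to 3 per member were named, and 2 of them are not reported here.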

Additional observations from a re-analysis of the deposited data

Results flagged for a closer look

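Only the PT-like, TAL-like and DCT/CNT-like classes were searched here. For 2 genes in them the diet ratios had opposite signs in the genotypes with both counting intervals clear of 0. With 1 library per group the difference was not tested, and pairs of opposite sign with an interval that included 0 are not listed. Slc34a1 in PT-like cells had an HFD to ND log2 ratio of -0.020 in WT and 0.34 in SP. The sign of the WT ratio turned in S1/S2-like cells alone, where it was 0.044 (0.026 to 0.062) beside 0.45 in SP, and in cluster 23, where it was 0.27. In S3-like cells alone the Slc34a1 ratios were -0.30 in WT (-0.43 to -0.18) and 0.97 in SP (0.77 to 1.18). Pth1r in TAL-like cells had -0.43 in WT and 0.29 in SP. In classes not searched, Pth1r was at 45.1, 24.2, 23.2 and 32.8 CPM in endothelial-like cells, with the same directions. In intercalated-like cells it was at 32.9, 44.0, 30.4 and 17.0 CPM, with the reverse directions.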

How the results depend on the processing

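No paired analysis was possible because each group was 1 library, and for the same reason no library could be left out. Log2 ratios of the members stayed within their 95% counting interval in 450 of 566 alternative values in PT-like cells, 335 of 399 in DCT/CNT-like cells and 317 of 353 in TAL-like cells. The log2 ratio of Slc34a3 in PT-like cells ranged from -1.36 to -0.82 between the WT diets and from -1.12 to -0.17 between the SP diets, and that of Cyp27b1 from -2.04 to -0.99 on ND and from -2.29 to -1.21 on HFD between genotypes. The sign changed in 54 of the alternative values in PT-like cells, 22 in DCT/CNT-like cells and 21 in TAL-like cells. Of these, 1 was of a ratio past 1.5-fold, that of Pdzk1 between the WT diets in DCT/CNT-like cells. It turned to 0.069 as a mean over cells, and the cause was not tested.

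The number of members past 1.5-fold in PT-like cells moved as follows. In S1/S2-like cells alone it was 2 in SP-ND against WT-ND. In S3-like cells alone it was 0 between the WT diets, 2 between the SP diets, 2 in SP-ND against WT-ND and 0 in SP-HFD against WT-HFD, where fewer cells were counted. As a mean over cells it was 2 between the SP diets and 2 in SP-HFD against WT-HFD. Between the SP diets it was also 2 with a minimum of 20 UMIs, 3 with a mitochondrial limit of 30% and 0 with no mitochondrial limit. In DCT/CNT-like cells, subtracting 10% ambient RNA gave 1 between the WT diets and 0 in SP-ND against WT-ND. A mean over cells gave 0 between the WT diets, 0 between the SP diets and 1 in SP-ND against WT-ND there. The mitochondrial limit of 30% gave 0 between the SP diets, 1 in SP-ND against WT-ND and 1 in SP-HFD against WT-HFD. The last was also 1 with at least 1000 UMIs per cell and 1 with doublets kept. Mixed cells put in their top class, added after seeing the data, gave 1 between the WT diets and 2 in SP-HFD against WT-HFD, and a stricter limit on markers of other classes gave 0 between the SP diets. The causes were not tested. The mitochondrial limit of 30% left 2660, 1880, 615 and 572 PT-like, 326, 349, 272 and 405 TAL-like, and 336, 136, 293 and 234 DCT/CNT-like cells by library.

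Cyp27b1 rests on 12 to 139 UMIs per library in PT-like cells, and with 1 library per group the spread between animals was not measured.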
